A study of Mus musculus with 48 samples.

Results

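Transcripts of 42 genes of glycolysis and glycogen metabolism were followed in mouse gastrocnemius, a mostly fast-twitch calf muscle, after oral exposure to perfluorooctane sulfonate (PFOS), a persistent fluorinated surfactant. The 42 genes were taken by symbol from a list of enzymes, regulators and transporters. They occupied 43 of the 54532 entries of the deposited count table, because Aldoa was listed as a main gene model and as a separate upstream model. All 43 entries were among the 15583 genes with enough counts to be tested, so none of the 42 was lost to the filter on low values. In what follows the upstream Aldoa model is given apart and is not counted.

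PFOS was given by gavage for 21 days at daily doses of 0 (17 mice), 1 (16 mice) or 10 mg/kg (15 mice). The mice were females and males of 2 lines. The hCYP2B6-Tg line carries the human cytochrome P450 gene CYP2B6, and the Cyp2b-null line lacks mouse Cyp2b genes. Whether the transgenic mice also lack the mouse genes is not stated in the sources used here. Genotype, sex and dose made 12 groups of 3 to 5 mice with 1 library each, and genotype and sex together made 4 strata. The sources used here give neither the ages of the mice nor the promoter of the transgene.

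Glycolysis splits glucose 6-phosphate into pyruvate in the cytosol, with an early stage that spends ATP and a later payoff stage that returns it. Muscle keeps its own glucose store as glycogen, which grows on the primer protein glycogenin and is cut back to glucose 1-phosphate by phosphorylase during contraction. Fast fibres rely on muscle-specific isoforms of several of these enzymes, while related isoforms predominate in liver, brain and many other cell types.

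Total counts per library ran from 11571142 to 19921061. The 42 genes took 5.18% ± 0.773 of all counts at 10 mg/kg/day and 6.32% ± 0.652 at 0 mg/kg/day (SD, n = 15 and 17). All 14 fast fibre and 8 muscle identity markers were detected, and 3 of 12 liver markers had enough counts to be tested, of which 0 passed at 10 against 0 mg/kg/day. Of the 48 libraries 6 stood apart, 1 by over 1000 counts of the liver gene Alb and 5 by over 30 counts of the lymph node gene Glycam1, and 4 of these were at 10 mg/kg/day. The other libraries had at most 224 Alb and 2 Glycam1 counts. In bulk tissue, fewer cells of a type and less RNA per cell cannot be told apart.

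At 10 mg/kg/day the main enzymes of the later glycolytic steps fell together. Relative to 0 mg/kg/day and averaged over the 4 strata, 19 of the 42 genes fell and 10 rose, and 13 did not pass (edgeR quasi-likelihood test, Benjamini-Hochberg adjusted p under 0.05 over all genes tested). Over all 15583 genes, 22.5% were called lower and 25% higher, or 47.5% in either direction. The median log2 fold change was -0.25 over the 42 genes and 0.04 over all genes tested. Under library totals with no scaling factor the median of all genes moved by 0.22, and 82.1% of all calls were higher, against 52.6% under the TMM scaling used here. None of the 29 called genes changed direction under that setting, although 5 of the falls no longer passed. Among the genes that did not pass, Hk2, Gpi1, Pfkfb2, Pfkfb4, Ppp1r3a and Ppp1r3d turned positive under it.

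**Figure D1:**
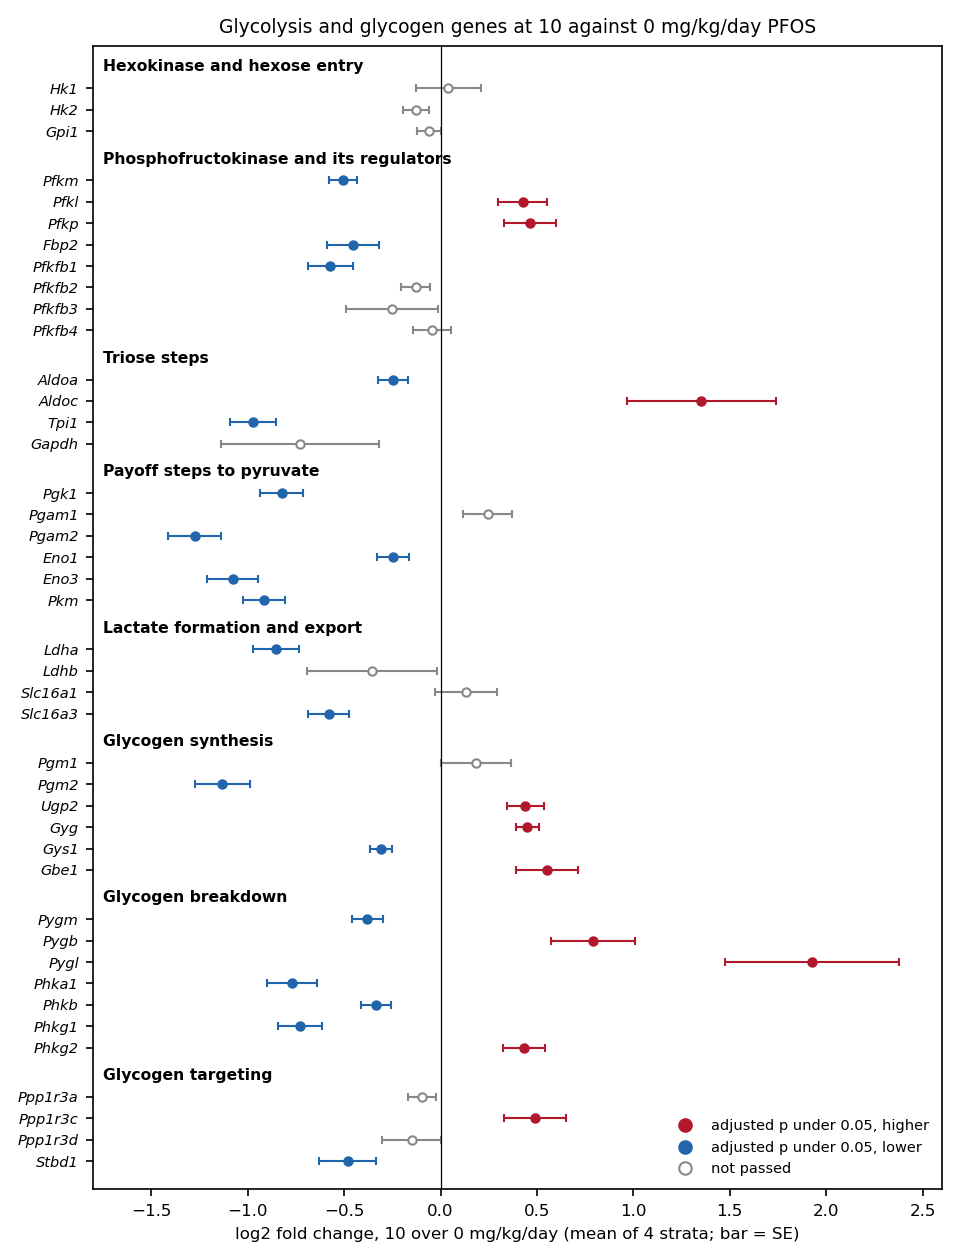
Log2 fold change of each of the 42 genes at 10 over 0 mg/kg/day, averaged over 4 strata (x axis; points are estimates, bars are standard errors), grouped by role. Filled points passed the test. Pgam2 lies lowest at -1.27 and Pygl highest at 1.93.

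Among the 42 genes, falls stood mostly among the abundant and rises mostly among the scarce ones. When the 42 genes were ordered by their mean level per kilobase over all libraries, 11 of the 14 most abundant (178 to 6445 CPM per kilobase) fell and 3 rose, with a median log2 fold change of -0.80. Of the 14 in the middle (12.7 to 156 CPM per kilobase) 8 fell and none rose. Among the 14 least abundant (0.105 to 12.4 CPM per kilobase) 7 rose and none fell, and their median was 0.34. The 3 abundant genes that rose were Ugp2, Gyg and Ppp1r3c, which act in glycogen synthesis and its control. The same split was not made over all genes tested, so it cannot be called particular to the 42. Across whole libraries, the 20 most abundant genes took 31.2% ± 2.96 of counts at 10 mg/kg/day and 36.4% ± 1.42 at 0 mg/kg/day (SD).

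None of the 3 genes of hexose entry passed, where 47.5% of all genes were called in either direction. Hk2, the hexokinase that predominates in muscle, had 169.6, 309 and 407 CPM (lowest, median and highest) at 10 mg/kg/day, against 266, 335 and 379.9 CPM at 0 mg/kg/day. Its log2 fold change was -0.13 ± 0.07 (SE, adjusted p = 0.126). Hk1, the broadly expressed hexokinase, had a log2 fold change of 0.04 ± 0.17 (adjusted p = 0.861). Gpi1, which converts glucose 6-phosphate to fructose 6-phosphate, had -0.06 ± 0.06 (adjusted p = 0.451), which became 0.17 on unscaled totals, where it passed. The 95% intervals ran from -0.19 to 0.07 for Gpi1 and from -0.27 to 0.01 for Hk2. Within strata, Hk2 fell in hCYP2B6-Tg females (-0.44 ± 0.14, adjusted p = 0.0146) and did not pass in the other 3 strata.

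Phosphofructokinase commits fructose 6-phosphate to glycolysis, and its muscle subunit fell while the other 2 subunits rose. Pfkm, the muscle subunit, had 2041, 3040 and 4233 CPM at 10 mg/kg/day, against 3753, 4446 and 5013 CPM at 0 mg/kg/day. Its log2 fold change was -0.50 ± 0.07 (adjusted p = 4.68e-07), and the ranges overlapped. Pfkp, the platelet-type subunit, had 5.07, 8.67 and 18.7 CPM at 10 mg/kg/day and 3.95, 6.62 and 9.30 CPM at 0 mg/kg/day, a rise of 0.47 ± 0.14 (adjusted p = 0.00433). Pfkl, the liver-type subunit, rose by 0.43 ± 0.13 (adjusted p = 0.00525), with 6.87, 10.9 and 28.3 CPM at 10 mg/kg/day and 5.52, 8.92 and 12.2 CPM at 0 mg/kg/day. Its estimate was -0.36 ± 0.25 in hCYP2B6-Tg females, where it did not pass, with 7.88, 6.92, 6.87 and 10.5 CPM at 10 mg/kg/day and 11.0, 8.92, 9.97 and 11.3 CPM at 0 mg/kg/day. Pfkp shares sequence with the entry Pitrm1, whose counts were higher, so its reads are less certain. Per kilobase, Pfkm still made up 99.7% ± 0.219 of the 3 subunits at 10 mg/kg/day and 99.9% ± 0.0324 at 0 mg/kg/day (SD, n = 15 and 17).

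The enzymes that make and remove fructose 2,6-bisphosphate, an activator of phosphofructokinase, gave 1 fall among 4 genes. That is near the share over all genes, of which 22.5% were called lower. Pfkfb1 had 19.7, 36.9 and 61.8 CPM at 10 mg/kg/day, against 45.6, 53.3 and 82.3 CPM at 0 mg/kg/day, and fell by 0.57 ± 0.12 (log2 scale, adjusted p = 9.97e-05). Pfkfb3, the most abundant of the 4 per kilobase, did not pass (-0.25 ± 0.24, adjusted p = 0.401) and ranged from 188 to 1441 CPM at 10 mg/kg/day and from 280.1 to 1562 CPM at 0 mg/kg/day. Pfkfb2 and Pfkfb4 did not pass either, with -0.13 ± 0.08 and -0.04 ± 0.10. Fbp2, the muscle fructose bisphosphatase that works against phosphofructokinase, fell by 0.45 ± 0.14 (adjusted p = 0.00543). It had 22.1, 52.7 and 106 CPM at 10 mg/kg/day and 36.7, 79.0 and 186 CPM at 0 mg/kg/day. On unscaled totals its log2 fold change was -0.25, which did not pass (edgeR adjusted p = 0.0528). In Cyp2b-null males the treated libraries did not lie lower, as given by mouse further on.

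Among the triose steps, Tpi1 fell most. Triose phosphate isomerase, encoded by Tpi1 (ENSMUSG00000023456, chromosome 6, 124810586 to 124814296, GRCm38), brings both products of the split sugar into the payoff stage. It had 745, 1288 and 2243 CPM at 10 mg/kg/day, against 1822, 2296 and 3440 CPM at 0 mg/kg/day, a log2 fold change of -0.97 ± 0.12 (adjusted p = 1.13e-08). Aldoa, the muscle aldolase that cuts the sugar, was the most abundant of the 42 genes per kilobase (5610 ± 1023 at 10 and 6695 ± 1124 CPM per kilobase at 0 mg/kg/day, SD, n = 15 and 17). It fell by 0.25 ± 0.08 (adjusted p = 0.00801), with 12806, 15604 and 22862 CPM at 10 mg/kg/day and 14412, 19062 and 25327 CPM at 0 mg/kg/day. Both dose groups overlapped over most of their range for Aldoa.

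The upstream Aldoa model (chromosome 7, 126800790 to 126809108) does not overlap the main one (126795234 to 126800751), and the difference between their changes was not tested. It had 4.46, 22.6 and 102.1 CPM at 10 mg/kg/day, against 34.5, 79.8 and 106.9 CPM at 0 mg/kg/day, a log2 fold change of -1.51 ± 0.28 (adjusted p = 2.14e-05). Aldoc, the brain-type aldolase, rose by 1.35 ± 0.39 (adjusted p = 0.00381) at a level close to nothing, with 0.177, 0.447 and 1.78 CPM at 10 mg/kg/day and 0, 0.170 and 0.507 CPM at 0 mg/kg/day. It had 0 to 37 counts per library.

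Of the 6 genes of the payoff steps, 5 fell and 1 did not pass, where 22.5% of all genes were called lower. Pgam2, the muscle phosphoglycerate mutase (ENSMUSG00000020475, chromosome 11, 5801640 to 5803733), had 236, 653 and 1525 CPM at 10 mg/kg/day, against 1327, 1677 and 2349 CPM at 0 mg/kg/day. Its log2 fold change of -1.27 ± 0.14 (fold 0.413, adjusted p = 6.11e-10) was the lowest of the 42. Most libraries at 10 mg/kg/day lay below all libraries at 0 mg/kg/day, and the overlap came from 1 Cyp2b-null female with 1525 CPM. Eno3, the muscle enolase that forms phosphoenolpyruvate, had 2103, 3787 and 7240 CPM at 10 mg/kg/day and 5666, 7452 and 10911 CPM at 0 mg/kg/day (-1.08 ± 0.13, adjusted p = 1.25e-08). Pkm, the pyruvate kinase of muscle, had 1534, 2206 and 3956 CPM at 10 mg/kg/day and 3377, 4192 and 6139 CPM at 0 mg/kg/day (-0.92 ± 0.11, adjusted p = 5.75e-09). For both genes the overlap came from replicate 4 of the treated Cyp2b-null females, with 7240 CPM of Eno3 and 3956 CPM of Pkm, and the other 14 treated libraries lay below every library at 0 mg/kg/day.

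Pgk1, the phosphoglycerate kinase that makes the first ATP of the payoff stage, fell by 0.82 ± 0.11 (log2 scale, adjusted p = 1.06e-07), with 382, 598 and 975.5 CPM at 10 mg/kg/day and 781, 1013 and 1591 CPM at 0 mg/kg/day. The isoforms of most tissues are given beside them, and the difference between isoforms was not tested. Eno1, the broadly expressed enolase, fell by 0.25 ± 0.08 (adjusted p = 0.0148), with 44.1, 73.6 and 175 CPM at 10 mg/kg/day and 75.6, 90.7 and 128.5 CPM at 0 mg/kg/day. That average joins estimates of opposite sign in the strata, given further on, and was -0.0040 on unscaled totals, where it did not pass. Pgam1, the mutase of most tissues, did not pass (0.24 ± 0.13, adjusted p = 0.109), at 4.70, 8.07 and 17.6 CPM at 10 mg/kg/day and 4.08, 6.94 and 10.6 CPM at 0 mg/kg/day.

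**Figure D2:**
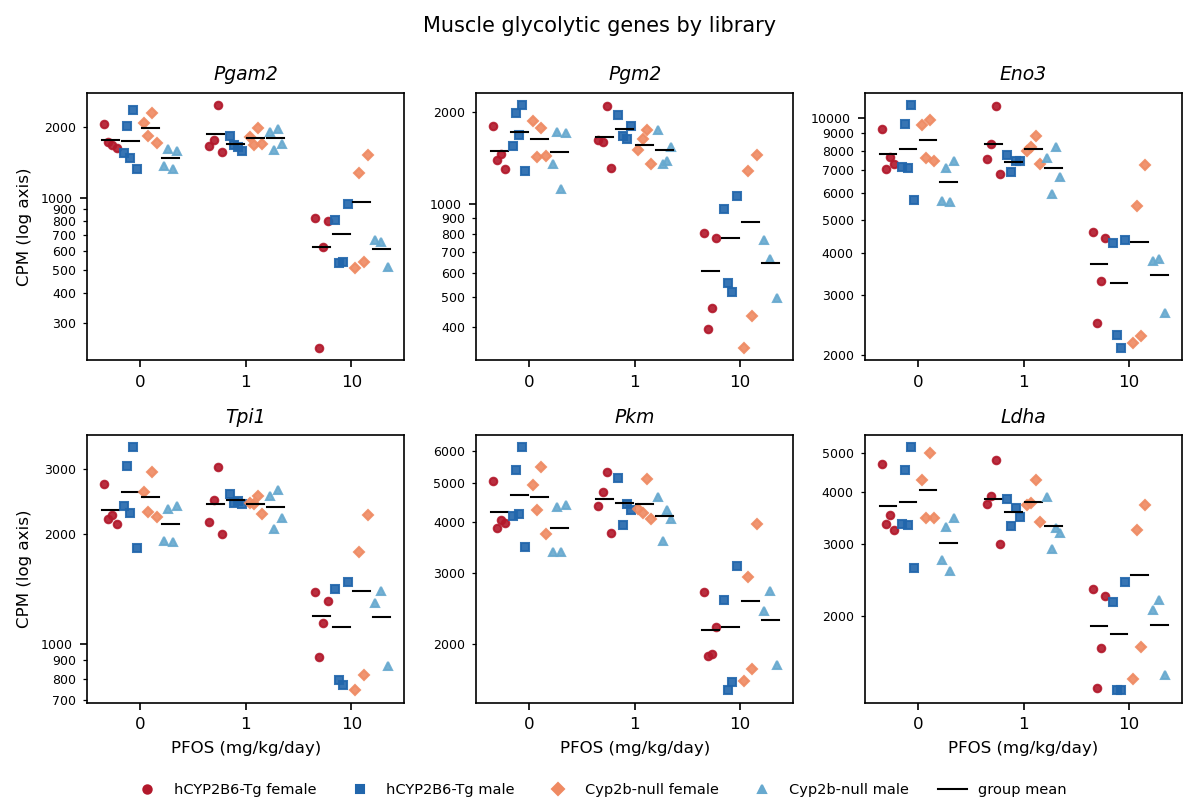
CPM of Pgam2, Pgm2, Eno3, Tpi1, Pkm and Ldha in each of the 48 libraries (y, log axis) by PFOS dose (x, mg/kg/day), with 1 symbol per stratum and a black line at each group mean. Libraries at 0 and 1 mg/kg/day share a range in each panel, and those at 10 mg/kg/day lie lower, with 2 Cyp2b-null females nearest to the lower doses.

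Promoter sequence is shown for 3 genes that fell in every stratum and, for contrast, for Pgam1, which did not pass. Each window runs 5′ to 3′ from 250 bases before to 50 after the transcription start in RefSeq (GRCm38.p6), on the gene's strand. Capitals mark the E-box letters CANNTG, which muscle regulatory factors and many other proteins can bind, a MEF2 motif, and the letters ACGTG at the core of hypoxia response elements. Both strands were searched.
Pgam2, chr11:5803747-5804046, minus strand: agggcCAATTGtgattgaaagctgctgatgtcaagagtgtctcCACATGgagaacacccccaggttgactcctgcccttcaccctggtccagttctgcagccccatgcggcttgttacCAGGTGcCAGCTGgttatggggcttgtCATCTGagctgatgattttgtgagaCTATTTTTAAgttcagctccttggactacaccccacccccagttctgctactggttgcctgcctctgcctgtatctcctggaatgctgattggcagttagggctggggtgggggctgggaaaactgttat
Tpi1, chr6:124814109-124814408, minus strand: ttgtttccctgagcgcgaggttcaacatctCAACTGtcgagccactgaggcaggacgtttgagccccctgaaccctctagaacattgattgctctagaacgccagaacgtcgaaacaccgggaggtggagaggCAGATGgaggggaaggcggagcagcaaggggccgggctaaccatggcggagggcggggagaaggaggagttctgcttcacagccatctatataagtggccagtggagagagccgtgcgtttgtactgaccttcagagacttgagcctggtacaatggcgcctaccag
Pkm, chr9:59656326-59656625, plus strand: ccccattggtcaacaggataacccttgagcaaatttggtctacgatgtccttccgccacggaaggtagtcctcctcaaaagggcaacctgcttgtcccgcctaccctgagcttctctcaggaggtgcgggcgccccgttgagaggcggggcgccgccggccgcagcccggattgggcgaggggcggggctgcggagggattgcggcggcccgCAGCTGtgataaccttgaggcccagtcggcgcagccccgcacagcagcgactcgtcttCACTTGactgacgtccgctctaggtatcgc
Pgam1, chr19:41911621-41911920, plus strand: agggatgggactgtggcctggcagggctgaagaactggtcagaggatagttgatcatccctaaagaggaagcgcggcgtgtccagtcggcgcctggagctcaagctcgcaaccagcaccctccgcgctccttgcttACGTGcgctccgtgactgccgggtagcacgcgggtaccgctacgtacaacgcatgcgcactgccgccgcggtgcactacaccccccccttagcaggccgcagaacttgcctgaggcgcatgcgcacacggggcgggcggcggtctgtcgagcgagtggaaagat

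The Pgam2 window held 5 E-boxes and 1 MEF2 motif that begins 80 bases before the start, while the Pgam1 window held neither. Tpi1 and this first of 2 Pkm windows held 2 E-boxes each. All 42 genes matched a RefSeq promoter, in 60 windows, while the 27025 genes with a window had 32851 windows. A gene was counted where any of its windows held the letters, so genes with more windows had more room for a match. An E-box was present for 17 of the 19 genes that fell and 7 of the 10 that rose, against 75.0% of 27025 genes with a window, and the MEF2 motif for 3 of the 42 (Pgam2, Pfkfb1 and Ppp1r3a), against 3.70% of all genes. ACGTG was present for 24 of the 42, or 57.1%, against 21.8% of all genes, and for 9 of the 19 that fell and 6 of the 10 that rose. These are matches of letters only.

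In lactate formation and export, the muscle forms fell. Ldha, the lactate dehydrogenase of fast muscle, had 1313, 2068 and 3735 CPM at 10 mg/kg/day, against 2575, 3457 and 5157 CPM at 0 mg/kg/day, a fall of 0.85 ± 0.12 (log2 scale, adjusted p = 1.61e-07). Slc16a3, the lactate exporter MCT4, had 134.1, 211 and 359 CPM at 10 mg/kg/day and 205, 344 and 469 CPM at 0 mg/kg/day (-0.58 ± 0.11, adjusted p = 1.97e-05). Ldhb, the heart-type dehydrogenase, did not pass (-0.36 ± 0.34, adjusted p = 0.403) and spread widely, from 41.9 to 241 CPM at 10 mg/kg/day and from 32.5 to 493 CPM at 0 mg/kg/day. In Cyp2b-null males the treated libraries lay below the untreated ones without overlap, and in the other strata the dose groups overlapped. The importer MCT1, encoded by Slc16a1, did not pass (0.13 ± 0.16, adjusted p = 0.522). Per kilobase, Slc16a1 made up 16.3% ± 7.0 of the 2 transporters at 10 mg/kg/day and 10.3% ± 3.76 at 0 mg/kg/day (SD, n = 15 and 17).

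Genes of glycogen synthesis moved in both directions, with 3 rises and 2 falls among 6, where 25% of all genes were called higher and 22.5% lower. Pgm2 in the deposited table is the abundant muscle phosphoglucomutase on chromosome 4 (99929414 to 99987294), which RefSeq names Pgm1, and the table's Pgm1 is the scarce gene on chromosome 5. Phosphoglucomutase interconverts glucose 1-phosphate and glucose 6-phosphate and so serves both synthesis and breakdown. The table's Pgm2 fell by 1.13 ± 0.15 (log2 scale, adjusted p = 3e-08), with 341, 664 and 1442 CPM at 10 mg/kg/day and 1119, 1549 and 2106 CPM at 0 mg/kg/day. The table's Pgm1 did not pass (0.18 ± 0.18, adjusted p = 0.417).

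Of the next steps towards glycogen, 3 genes rose and the synthase gene fell. Ugp2 makes UDP-glucose, the glucose donor, and had 435, 974 and 1351 CPM at 10 mg/kg/day, against 568, 689 and 797 CPM at 0 mg/kg/day (0.44 ± 0.10, adjusted p = 0.000279). Gyg, glycogenin, had 318, 579 and 825 CPM at 10 mg/kg/day and 345, 396 and 495 CPM at 0 mg/kg/day (0.45 ± 0.06, adjusted p = 5.28e-08). Gbe1, the branching enzyme, had 25.3, 67.1 and 133.6 CPM at 10 mg/kg/day and 26.7, 43.7 and 75.7 CPM at 0 mg/kg/day (0.55 ± 0.16, adjusted p = 0.00454). In each of the 3 genes the spread was wider at 10 mg/kg/day and its lowest library lay below the lowest at 0 mg/kg/day. Gys1, the muscle glycogen synthase that extends the chains, fell by 0.31 ± 0.05 (adjusted p = 1.17e-05), with 312, 389 and 448 CPM at 10 mg/kg/day and 414, 480.2 and 534 CPM at 0 mg/kg/day.

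All 7 genes of glycogen breakdown passed, 4 of them lower and 3 higher, where 22.5% of all genes were called lower and 25% higher. Pygm, the muscle phosphorylase that releases glucose 1-phosphate, fell by 0.38 ± 0.08 (log2 scale, adjusted p = 0.000178), with 6556, 8485 and 12401 CPM at 10 mg/kg/day and 8788, 11198 and 14288 CPM at 0 mg/kg/day. The other 2 phosphorylases rose. Pygl, the liver type, had 0.828, 5.21 and 33.6 CPM at 10 mg/kg/day and 0.242, 1.17 and 4.69 CPM at 0 mg/kg/day (1.93 ± 0.45, fold 3.80, adjusted p = 0.000502). Pygb, the brain type, had 2.84, 7.27 and 17.3 CPM at 10 mg/kg/day and 2.46, 4.45 and 8.52 CPM at 0 mg/kg/day (0.79 ± 0.22, adjusted p = 0.0026). Together they remained a trace, since per kilobase Pygl was 0.0478% ± 0.0647 and Pygb 0.0763% ± 0.0499 of the phosphorylases at 10 mg/kg/day, against 0.00682% ± 0.00522 and 0.0305% ± 0.0126 at 0 mg/kg/day (SD, n = 15 and 17).

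Phosphorylase kinase, the complex that switches phosphorylase on, had lower transcript levels of its muscle subunits. Phka1, the muscle regulatory alpha subunit, had 402, 708 and 1283 CPM at 10 mg/kg/day, against 929.7, 1263 and 1639 CPM at 0 mg/kg/day (-0.77 ± 0.13, adjusted p = 4.23e-06). Phkg1, the muscle catalytic gamma subunit, had 221, 429 and 712 CPM at 10 mg/kg/day and 526, 672 and 825 CPM at 0 mg/kg/day (-0.73 ± 0.11, adjusted p = 1.52e-06). The beta subunit Phkb fell by 0.33 ± 0.08 (adjusted p = 0.000595). The other gamma subunit, Phkg2, rose by 0.43 ± 0.11 (adjusted p = 0.00113), with 4.96, 6.61 and 9.69 CPM at 10 mg/kg/day and 3.46, 4.90 and 5.84 CPM at 0 mg/kg/day. Both gamma genes share near-identical stretches with other entries, 27 for Phkg1 and 40 for Phkg2, so their reads are less certain.

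**Figure D3:**
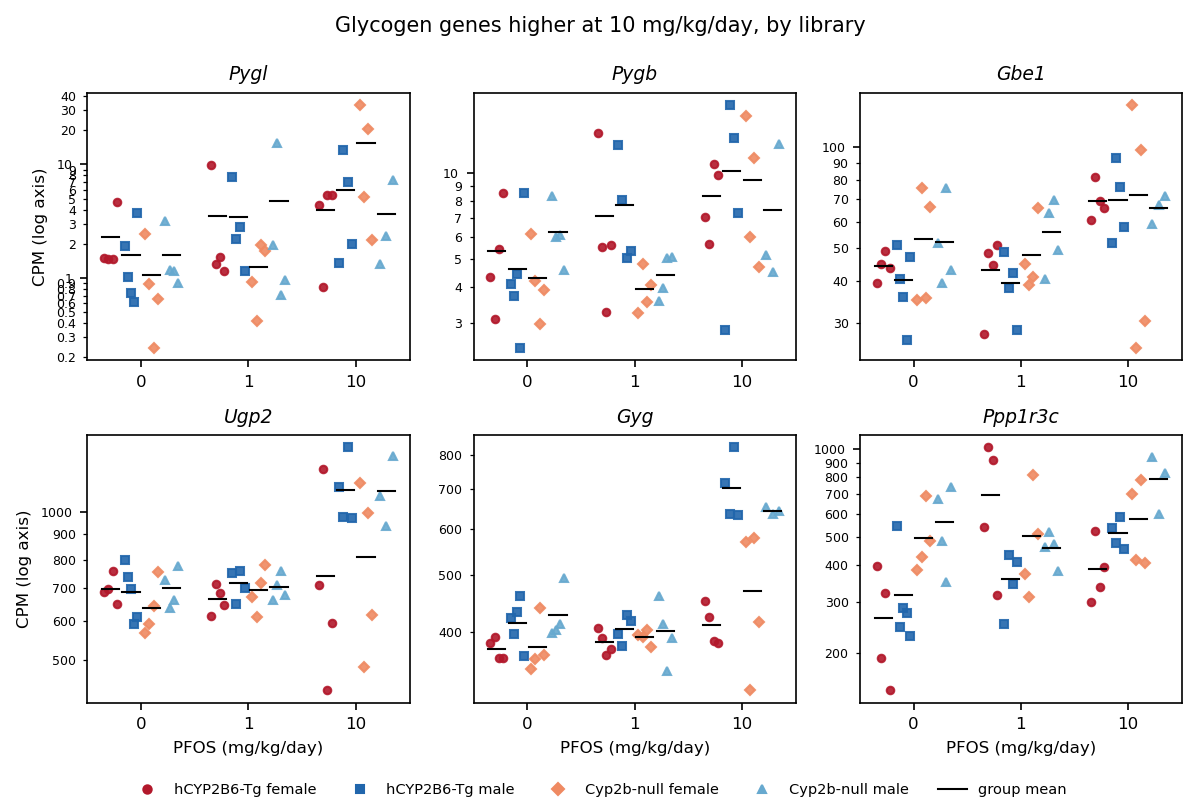
CPM of Pygl, Pygb, Gbe1, Ugp2, Gyg and Ppp1r3c in each of the 48 libraries (y, log axis) by PFOS dose (x, mg/kg/day), with 1 symbol per stratum and a black line at each group mean. Gyg reaches 825 CPM at 10 mg/kg/day and at most 495 CPM at 0 mg/kg/day, and Pygl spreads most widely, from 0.828 to 33.6 CPM at 10 mg/kg/day.

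Of the 4 genes that tie enzymes to glycogen, 1 rose and 1 fell, near the shares over all genes (25% higher, 22.5% lower). Ppp1r3c, which brings protein phosphatase 1 to glycogen, rose by 0.49 ± 0.16 (log2 scale, adjusted p = 0.0106), with 299, 525 and 941 CPM at 10 mg/kg/day and 149, 386 and 739 CPM at 0 mg/kg/day. Stbd1, a starch-binding protein linked to the transport of glycogen to lysosomes, fell by 0.48 ± 0.15 (adjusted p = 0.00688), with 11.5, 38.6 and 81.6 CPM at 10 mg/kg/day and 23.3, 47.2 and 106 CPM at 0 mg/kg/day. Ppp1r3a, the muscle glycogen-targeting subunit, and Ppp1r3d, a related subunit, did not pass, with -0.10 ± 0.07 and -0.15 ± 0.15. Without the 6 libraries that stood apart, the rise of Ppp1r3c did not pass, nor did that of Aldoc.

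Muscle isoforms kept most of each enzyme at the transcript level. Per kilobase, Pgam1 was 0.663% ± 0.416 of the mutases at 10 mg/kg/day and 0.194% ± 0.0602 at 0 mg/kg/day (SD, n = 15 and 17). Eno1 made up 0.874% ± 0.642 of the 2 enolases at 10 mg/kg/day and 0.395% ± 0.0581 at 0 mg/kg/day. Ldhb was 12.2% ± 6.93 of the lactate dehydrogenases at 10 mg/kg/day and 8.46% ± 6.62 at 0 mg/kg/day, but the strata differed in direction. Its share was 16.2% at 10 and 6.37% at 0 mg/kg/day in hCYP2B6-Tg males, and 8.91% and 13.4% in Cyp2b-null males. In females it was 13.6% and 8.27% (hCYP2B6-Tg) and 9.14% and 6.28% (Cyp2b-null). Phkg2 was 2.94% ± 1.39 of the gamma subunits at 10 mg/kg/day and 1.17% ± 0.254 at 0 mg/kg/day. Hk2 stayed at 98.1% ± 0.631 of the 2 hexokinases at 10 mg/kg/day and 98.4% ± 0.508 at 0 mg/kg/day. These shares are descriptions and were not tested.

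The low dose gave no called change. With strata averaged, at 1 against 0 mg/kg/day, 0 of the 42 genes passed with edgeR, with limma voom or with DESeq2, and 1 had an unadjusted p under 0.05 (Ppp1r3c, 0.33 ± 0.16). Over all genes tested 0% were called in either direction. Within strata, 0 of the 42 passed with edgeR, against 0.0128% of all genes in hCYP2B6-Tg males and 0% in the other 3 strata. The counts of unadjusted p under 0.05 were 2 in hCYP2B6-Tg females, 2 in hCYP2B6-Tg males, 0 in Cyp2b-null females and 1 in Cyp2b-null males. DESeq2 and voom each called 1 of the 42, Ppp1r3c in hCYP2B6-Tg females, where edgeR gave 1.4 ± 0.32 (adjusted p = 0.276). Those females had 541, 1015, 917 and 316 CPM of Ppp1r3c at 1 mg/kg/day, against 398, 192, 321 and 149 CPM at 0 mg/kg/day, so the groups overlapped.

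Against 1 mg/kg/day, the 10 mg/kg/day groups gave 20 falls and 7 rises among the 42 genes, while 22.2% of all genes were called lower and 24.7% higher (46.9% in either direction). This comparison shares its 10 mg/kg/day libraries with the one against 0 mg/kg/day. Pgam2 at 0, 1 and 10 mg/kg/day had medians of 1677, 1689 and 653 CPM, and Gyg had medians of 396, 393 and 579 CPM. Hk2 passed here, with a log2 fold change of -0.22 ± 0.07 (adjusted p = 0.00812). Rises of Pfkl (0.27 ± 0.13), Aldoc (0.69 ± 0.37) and Ppp1r3c (0.16 ± 0.16) did not pass against 1 mg/kg/day.

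Within the strata, falls at 10 against 0 mg/kg/day numbered 16 in hCYP2B6-Tg females (13.5% of all genes were called lower), 14 in hCYP2B6-Tg males (10.6%), 12 in Cyp2b-null females (6.87%) and 6 in Cyp2b-null males (8.36%). Rises numbered 1 (14.2% of all genes called higher), 5 (7.92%), 3 (5.83%) and 2 (7.45%) in the same order, and 27.7%, 18.5%, 12.7% and 15.8% of all genes were called in either direction. Pgam2, Eno3, Tpi1, Pkm and the table's Pgm2 fell in all 4 strata. In 3 of the strata the counts rest on single libraries. In hCYP2B6-Tg females, falls stayed at 11 to 17 as each library was left out. Without replicate 3 at 10 mg/kg/day, falls numbered 2 in Cyp2b-null females, 1 in Cyp2b-null males and 8 in hCYP2B6-Tg males, and rises in hCYP2B6-Tg males numbered 1. These 3 libraries are among the 6 that stood apart. Without all 6, falls numbered 9 in hCYP2B6-Tg males, 2 in Cyp2b-null females and 2 in Cyp2b-null males. Rises numbered 1 in each of these strata. The shares over all genes were not counted with libraries left out.

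**Figure D4:**
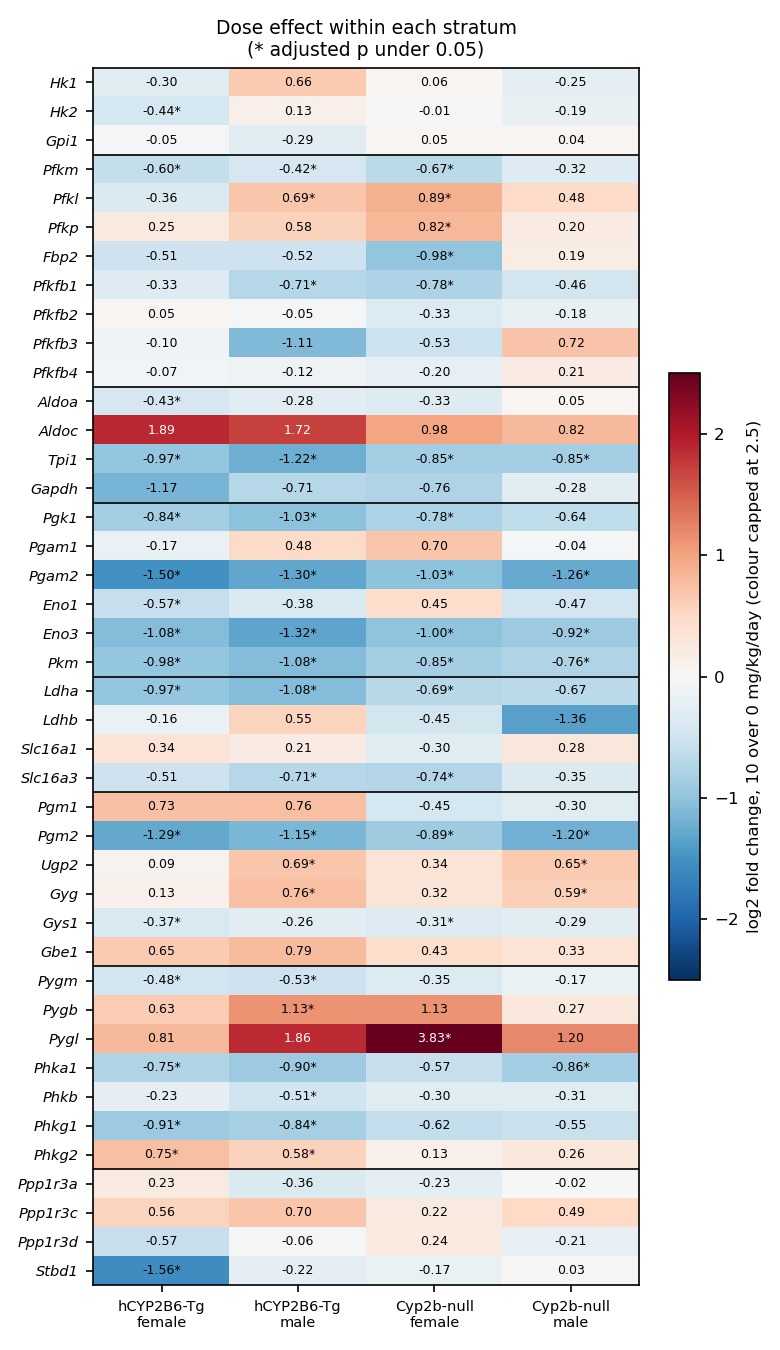
Log2 fold change at 10 over 0 mg/kg/day of the 42 genes (rows, grouped by role) in each of 4 strata (columns), with an asterisk where the adjusted p was under 0.05. Pgam2, Eno3, Tpi1, Pkm and Pgm2 are lower in all 4 columns, while Gyg is 0.76 in hCYP2B6-Tg males and 0.13 in hCYP2B6-Tg females.

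Pgam2 showed the separation of the doses in single mice. In hCYP2B6-Tg females it had 825, 236, 622 and 806 CPM at 10 mg/kg/day, against 2047, 1719, 1677 and 1620 CPM at 0 mg/kg/day. In hCYP2B6-Tg males it had 814, 534, 540.4 and 946 CPM at 10 mg/kg/day and 1550, 2017, 1470, 2349 and 1328 CPM at 0 mg/kg/day. The 2 groups did not overlap in either sex of this line. Cyp2b-null females had 512, 1283, 539 and 1525 CPM at 10 mg/kg/day and 2072, 1832, 2280 and 1707 CPM at 0 mg/kg/day, while the 3 males of the Cyp2b-null line had 670.0, 653 and 514 CPM at 10 mg/kg/day and 1369, 1614, 1327 and 1572 CPM at 0 mg/kg/day. Here too the doses were apart, though replicates 2 and 4 of the treated Cyp2b-null females lay well above the other 2.

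Taken over all libraries at once, 0 of the 42 genes had dose groups without overlap, against 0.738% of all genes lower and 0.27% higher. Within strata, Pgam2 and Eno3 were lower without overlap in all 4 (1.74% of all genes). In at least 3 strata the same held for 8 genes (5.31% of all genes), which were those 2 with Tpi1, Pkm, Ldha, Pgm2, Phka1 and Phkg1. Rises without overlap reached at most 2 strata, in Ugp2, Gyg, Gbe1 and Phkg2, and 0 of the 42 did so in all 4 (0.809% of all genes). Falls that passed and kept 1 sign across the 4 strata numbered 15 (19.3% of all genes), and rises of that kind 9 (20%).

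The treated Cyp2b-null females fell into pairs for several of the genes. Pygl had 33.6 and 20.6 CPM in replicates 1 and 3 and 5.21 and 2.17 CPM in replicates 2 and 4. Eno3 had 2180 and 2284 CPM in replicates 1 and 3, and 5504 and 7240 CPM in replicates 2 and 4. Gyg had 568 and 579 CPM in replicates 1 and 3, and 318 and 415 CPM in replicates 2 and 4. Eno1 had 3099 and 2952 counts in replicates 1 and 3, and 1640 and 1439 counts in replicates 2 and 4. Marker lists split the same way. Summed adipocyte markers were 2914 and 2132 CPM in replicates 1 and 3, and 941 and 831 CPM in replicates 2 and 4. Fast fibre markers summed to 103261 and 105759 CPM in replicates 1 and 3, and to 175599 and 185633 CPM in replicates 2 and 4. Muscle identity markers summed to 40682 and 36175 CPM in replicates 1 and 3, and to 59147 and 68301 CPM in replicates 2 and 4. Their part in the split of the 42 genes was not tested. Replicate 3 is among the 6 libraries that stood apart and replicate 1 is not.

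Differences of the dose effect between sexes and between genotypes were tested directly. For females minus males, 0 of the 42 passed with edgeR (0.0706% of all genes higher, 0.0578% lower, 0.128% in either direction), 5 had an unadjusted p under 0.05, and DESeq2 called 1 and voom 0. Gyg came nearest, with a difference of -0.45 ± 0.12 (adjusted p = 0.116). For hCYP2B6-Tg minus Cyp2b-null, 0 of the 42 passed with edgeR, DESeq2 or voom (0% of all genes), and 5 had an unadjusted p under 0.05, with a lowest adjusted p of 0.415 for the table's Pgm1 (1.11 ± 0.36). An F test across the 4 strata called 1 of the 42, Eno1 (adjusted p = 0.0489), against 0.648% of all genes, while 8 had an unadjusted p under 0.05. Eno1 lay between 89.3 and 175 CPM in treated Cyp2b-null females and between 82.7 and 104.6 CPM in their controls. Treated replicates 1 and 3 had the higher counts, as given above. In this stratum the log2 fold change of Eno1 was 0.45 ± 0.17. It was -0.57 and -0.38 in the females and males of the hCYP2B6-Tg line and -0.47 in Cyp2b-null males. This call was at the threshold, since the adjusted p ran from 0.0129 to 0.108 as each of 32 libraries was left out and stayed under 0.05 in 12 of these cases.

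Sex set the level of a few of the genes. At 0 mg/kg/day, 3 of the 42 were higher in females than in males (2.86% of all genes) and 1 was lower (4.73%, or 7.59% in either direction). Fbp2 had a log2 difference of 1.37 ± 0.19 (adjusted p = 1.66e-06), with 82.7 to 186 CPM in 8 females and 36.7 to 79.0 CPM in 9 males, so the sexes did not overlap. Stbd1 was higher by 0.86 ± 0.20 (adjusted p = 0.00466) and Ppp1r3d by 0.74 ± 0.21 (adjusted p = 0.0226), and Phkb was lower by 0.45 ± 0.11 on the log2 scale (adjusted p = 0.00628). At 10 mg/kg/day Fbp2 was again higher in females, by 0.79 ± 0.20 (adjusted p = 0.0163), as was Eno1, by 0.42 ± 0.12 (adjusted p = 0.0442), while 1.26% of all genes were called higher.

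Glycogenin and its substrate enzyme were lower in treated females than in treated males. At 10 mg/kg/day, Gyg had a log2 difference of -0.61 ± 0.09 (adjusted p = 8.6e-06), with 450.5, 424, 386 and 383 CPM in hCYP2B6-Tg females and 568, 318, 579 and 415 CPM in Cyp2b-null females. Treated males had 716, 634, 825 and 633 CPM in the hCYP2B6-Tg line and 653, 635 and 643 CPM in the Cyp2b-null line, so all males lay above all females. Ugp2 had a difference of -0.51 ± 0.14 (adjusted p = 0.0326) and Hk2 of -0.34 ± 0.10 (adjusted p = 0.0473), and these 3 falls compare with 2.27% of all genes (3.54% in either direction). At 0 mg/kg/day the same differences did not pass, with -0.16 ± 0.08 for Gyg (adjusted p = 0.245) and -0.05 ± 0.13 for Ugp2 (adjusted p = 0.87). As given above, the change of the sex difference with dose did not pass for either gene.

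Between genotypes, 0 of the 42 differed at 0 mg/kg/day with edgeR, DESeq2 or voom (0% of all genes), and 2 had an unadjusted p under 0.05, Ppp1r3c (-0.87 ± 0.22) and the table's Pgm1 (-0.80 ± 0.25). At 10 mg/kg/day 0 passed with any of the 3 tools (0.0257% of all genes higher, 0.077% lower, 0.103% in either direction) and 4 had an unadjusted p under 0.05, of which Stbd1 had the lowest adjusted p (-0.69 ± 0.21, adjusted p = 0.142).

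Gapdh, the dehydrogenase that joins the triose steps to the payoff stage, could not be read as a single gene. It had 17.9, 395 and 812 CPM at 10 mg/kg/day, against 57.6, 679.6 and 1174 CPM at 0 mg/kg/day, and did not pass (-0.73 ± 0.41, adjusted p = 0.139). It shares at least 100 bases at 95% identity with 151 other entries, most of which had counts. Its counts ran from 317 to 13380 per library, whereas the sum of those entries ran from 2983 to 5493. In 12 libraries, 3 at 0, 4 at 1 and 5 at 10 mg/kg/day, Gapdh had fewer counts than these entries together. Summed with them it fell by 0.63 ± 0.22 (log2 scale, adjusted p = 0.019), a setting added once the values were known.

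**Figure D5:**
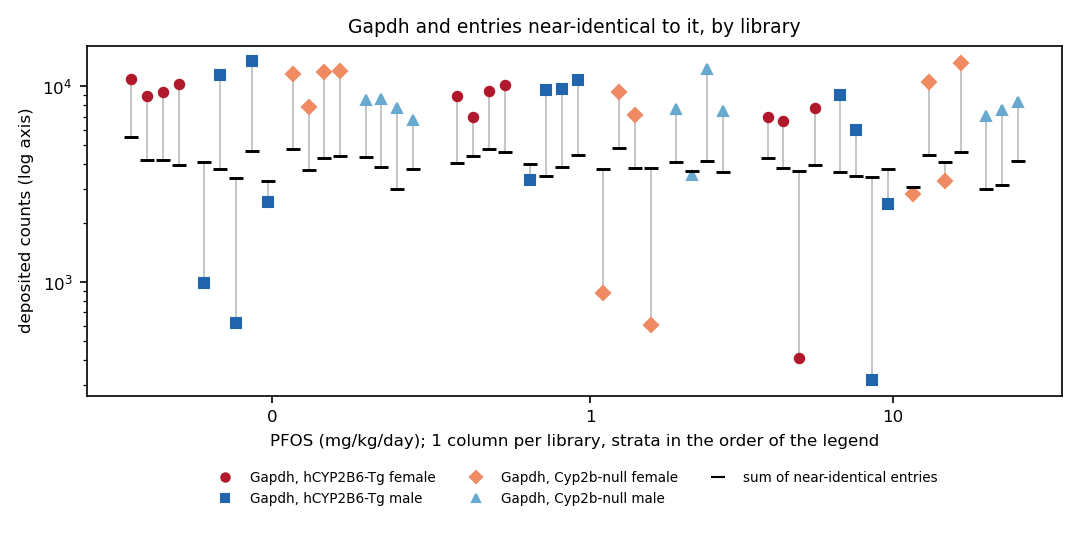
Deposited counts of Gapdh (coloured symbols) and of the sum of entries near-identical to it (black dashes) in each library (y, log axis), by PFOS dose (x, mg/kg/day) and stratum, with grey lines joining the values of a library. The dashes stay between 2983 and 5493, while Gapdh is at 317 in its lowest library.

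Markers of other tissue components moved with the dose as well, where 25% of all genes were called higher and 22.5% lower. Of 15 adipocyte markers 12 rose and 0 fell at 10 against 0 mg/kg/day, with 831 to 3698 summed CPM at 10 mg/kg/day and 549 to 1158 at 0 mg/kg/day. Adipoq, the fat-cell hormone adiponectin, had 2.57, 27.1 and 112 CPM at 10 mg/kg/day and 0.0848, 4.92 and 22.5 CPM at 0 mg/kg/day (2.72 ± 0.53, adjusted p = 4.5e-05). Among 14 fast fibre markers 8 fell and 2 rose, with 103261 to 185633 summed CPM at 10 mg/kg/day and 146276 to 216435 at 0 mg/kg/day. The calcium-storage protein Casq1 fell by 1.54 ± 0.14 and the fast myosin Myh4 by 0.58 ± 0.09 (log2 scale). None of these markers was at 0 in all libraries. Of 8 muscle identity markers 4 fell and 1 rose, with 36175 to 75652 summed CPM at 10 mg/kg/day and 66980 to 91325 at 0 mg/kg/day. Mitochondrially encoded genes took 7.66% ± 1.27 of counts at 10 mg/kg/day and 10.6% ± 1.33 at 0 mg/kg/day (SD, n = 15 and 17). Of 11 slow fibre markers 1 rose and 0 fell in the average, which joins strata of opposite sign. Their median log2 fold change was 2.91 in transgenic males, where 4 rose, and -2.04 in males of the null line, where 0 passed. Among females the medians were 0.90 for the transgenic line, where 1 rose, and 0.86 for the null line, where 0 passed. Of 9 macrophage markers 5 rose and 0 fell, and of 5 red blood cell markers 5 fell. Of 10 lymphocyte markers 9 rose, but their median summed level was 1.45 CPM at 10 mg/kg/day and 1.96 CPM at 0 mg/kg/day, and the highest library had 158.04 CPM at 10 mg/kg/day and 88.7 CPM at 0 mg/kg/day.

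With the mean of the adipocyte markers as a covariate, 15 of the 19 falls and 4 of the 10 rises passed (Ugp2, Gyg, Phkg2 and Ppp1r3c). Under it the log2 fold change of Pygl was 0.13 (adjusted p = 0.805) and that of Pfkl 0.05 (adjusted p = 0.787). With the mean of the fast fibre markers, 4 falls (Pgam2, Eno1, Pkm and Gys1) and 1 rise (Gyg) passed, and 4 falls and 5 rises had the other sign. Both covariates themselves move with dose. Their part in the changes of the 42 genes was not tested beyond these fits. The share of all genes that kept its call under these fits was not counted. The counts kept therefore cannot be called particular to the 42.

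Genes next to these pathways moved in both directions. For all the lists here, the shares over all genes were 22.5% called lower and 25% called higher. Of 14 tested among 21 other glycolytic enzymes and isoforms, 5 fell (35.7%) and 4 rose (28.6%, near the share over all genes). Slc37a4, the glucose 6-phosphate transporter of the endoplasmic reticulum, had 24.8, 45.2 and 112 CPM at 10 mg/kg/day and 101.01, 133 and 197 CPM at 0 mg/kg/day (-1.57 ± 0.14, adjusted p = 9.9e-12), and Bpgm, which makes 2,3-bisphosphoglycerate, fell by 0.88 ± 0.12. Of 21 tested other glycogen genes 8 fell and 9 rose, among them the lysosomal glycogen-degrading glucosidase Gaa (0.57 ± 0.08) and Prkag3, a regulatory subunit of muscle AMPK (-0.88 ± 0.20). Prkag3 had the lowest log2 fold change of these 21. In the pentose phosphate and hexosamine branches 7 of 15 rose (46.7%) and 3 fell (20%, near the share over all genes). Tkt, transketolase, rose by 1.7 ± 0.31 and G6pdx, the entry enzyme of the pentose pathway, by 1.39 ± 0.23. Of 5 genes of the glycerol phosphate and malate-aspartate shuttles, which carry cytosolic reducing power into mitochondria, 4 fell, including Gpd1 (-0.90 ± 0.10) and Mdh1 (-0.63 ± 0.09).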

How the data were processed

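Whole-number read counts per gene from 48 gastrocnemius libraries were used as deposited. RNA was extracted with TRIzol and libraries were made from purified mRNA, per the labels, whose extraction text names liver while the tissue field names gastrocnemius. The submitters' processing notes name HISAT2 and GRCm39, yet gene coordinates in the deposited table are those of GRCm38, since 98.3% of entries had the start and end of GENCODE vM21. The sources used here name no counting program and do not say whether strand was used, so reads of overlapping genes and of an antisense partner cannot be told apart.

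Genes were kept by filterByExpr (15583 tested), scaled by TMM and tested with edgeR 4.0.16 quasi-likelihood tests in R 4.3.3, with 1 coefficient for each of 12 groups, 36 residual degrees of freedom and two-sided Benjamini-Hochberg adjusted p-values under 0.05 over all genes. The biological coefficient of variation was 23.5%. CPM are deposited counts scaled to TMM-adjusted library size, and CPM per kilobase divides by the deposited gene length. Depth was 11571142 to 19921061 counts per library, and the number of mice per group limits precision. On simulated counts built for the averaged comparison of 10 with 0 mg/kg/day on 15583 genes, 88% of genes changed by a log2 of -1 were recovered, 56% at -0.5, 56% at 0.5 and 90% at 1. Only 50 genes were changed at each of these sizes, whereas 47.5% of all genes were called in the data. The adjustment of p depends on that share, so these figures need not hold for the real comparison.

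Alternatives were DESeq2 1.42.0, limma 3.58.1 voom, other scalings and filters, marker covariates, the replicate number as a block, and leaving out libraries. The labels give mice replicate numbers but no litter or cage, and no 2 libraries of a group agreed within sampling noise (73 pairs). Genes named with values were mainly those of the list that passed with the smallest p and the isoform families. The 42 genes and all gene lists were chosen with earlier results of these data known.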

Additional observations from a re-analysis of the deposited data

Results flagged for a closer look

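Single libraries lay apart from the rest of their group of 4 or 5 in 26 of 473 gene-by-group sets (5.5%), by a gap large against the range of the group, which chance gives in about 1 in 20. Pygl accounted for 4 of these. It had 15.5 CPM in replicate 2 of Cyp2b-null males at 1 mg/kg/day (others 0.712 to 1.96), 9.90 in replicate 1 of hCYP2B6-Tg females at 1 mg/kg/day (others 1.15 to 1.54), 4.69 in replicate 4 of hCYP2B6-Tg females at 0 mg/kg/day (others 1.46 to 1.49) and 3.17 in replicate 1 of Cyp2b-null males at 0 mg/kg/day (others 0.907 to 1.17). Aldoc was high in 3 libraries, with 1.78 CPM in replicate 3 of hCYP2B6-Tg females at 10 mg/kg/day, 0.724 in replicate 4 of Cyp2b-null females at 1 mg/kg/day and 1.16 in replicate 1 of hCYP2B6-Tg males at 1 mg/kg/day.

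Gapdh was low in replicate 3 of hCYP2B6-Tg females at 10 mg/kg/day, with 19.7 CPM (others 395 to 463), and in replicate 1 of hCYP2B6-Tg males at 1 mg/kg/day, with 227 CPM (others 697 to 726). The upstream Aldoa model had 158.7 CPM in replicate 3 of Cyp2b-null females at 1 mg/kg/day (others 67.3 to 81.7) and 34.5 CPM in replicate 3 of Cyp2b-null males at 0 mg/kg/day (others 73.8 to 78.9). Pfkm had 4018 CPM in replicate 4 of Cyp2b-null females at 0 mg/kg/day (others 4806 to 4888) and 4016 CPM in replicate 2 of Cyp2b-null males at 1 mg/kg/day (others 4525 to 4559). Pkm had 5079 CPM in replicate 1 of hCYP2B6-Tg females at 0 mg/kg/day (others 3885 to 4056).

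Replicate 4 of hCYP2B6-Tg males at 1 mg/kg/day was high for Hk1 (27.3 CPM, others 4.92 to 7.71) and Phkg2 (12.7 CPM, others 4.19 to 4.66). Replicate 5 of hCYP2B6-Tg males at 0 mg/kg/day was low for Slc16a3 (329 CPM, others 412 to 442) and Stbd1 (28.7 CPM, others 42.7 to 47.2), and replicate 1 of that group was high for Ppp1r3c (547 CPM, others 230 to 286). In hCYP2B6-Tg females, Eno1 was low in replicate 3 at 0 mg/kg/day (81.6 CPM, others 99.6 to 100.9) and in replicate 4 at 1 mg/kg/day (86.8 CPM, others 99.1 to 100.9), and Pgam1 was high in replicate 4 at 0 mg/kg/day (10.6 CPM, others 6.94 to 7.35). Slc16a1 had 44.1 CPM in replicate 2 of hCYP2B6-Tg males at 10 mg/kg/day (others 31.1 to 33.3) and Pfkp had 6.77 CPM in replicate 1 of Cyp2b-null females at 1 mg/kg/day (others 6.91 to 6.94). In Cyp2b-null males at 0 mg/kg/day, Ldhb had 493 CPM in replicate 3 (others 104 to 164) and Gyg had 495 CPM in replicate 4 (others 399 to 413).

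The dose effect on Eno1 differed among the 4 strata by the edgeR F test (adjusted p = 0.0489), with a positive estimate in Cyp2b-null females and negative ones in the other 3 strata.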

How the results depend on the processing

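Averaged over strata, the counts at 10 against 0 mg/kg/day (10 rises, 19 falls) stayed within 1.5 times under every scaling, filter and tool tried and as each of 32 libraries was left out (10 rises, 19 to 20 falls), but not with the marker covariates. Numbers in the sentences on settings are genes called among the 42. The shares over all genes were not counted for single strata under these settings or with libraries left out. These counts therefore cannot be called particular to the 42. Same-numbered mice of different groups were no more alike than other-numbered ones. Of 253 same-numbered pairs 34 correlated above 0.1 (median r = -0.01), against 154 of 802 other-numbered pairs (median r = 0.008). This cannot show whether mice shared a litter or cage. With the replicate number as a block, the averaged counts were 10 and 19. The block gave 1 gene higher in females at 10 mg/kg/day in place of 2, and 0 in place of 1 in the F test. It moved no other count by over 1.5 times.

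The adipocyte covariate left 4 rises in the average, 3 rises against 1 mg/kg/day, 2 rises in hCYP2B6-Tg females, 2 rises and 8 falls in the males of that line, and 0 rises and 2 falls in Cyp2b-null females. It gave 1 rise in Cyp2b-null males at 1 mg/kg/day, 2 genes lower in females at 0 mg/kg/day and 0 in the F test, and turned Pygb to -0.15. The fast fibre covariate left 1 rise and 4 falls in the average, 1 and 6 against 1 mg/kg/day, 7 falls in hCYP2B6-Tg females, 1 rise and 0 falls in the males of that line. In the Cyp2b-null line it left 0 rises and 0 falls in females and 1 rise and 2 falls in males. It gave 1 gene with a lower dose effect in females, 3 lower in females at 0 mg/kg/day and 2 in the F test. Under it the log2 fold changes of Pfkl (-0.14), Pfkp (-0.35), Gbe1 (-0.32), Pygb (-0.35), Pygl (-0.30), Fbp2 (0.16), Aldoa (0.13), Pygm (0.0088) and Phkb (0.067) took the other sign. The cause was not tested.

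Unscaled totals gave 14 rises against 1 mg/kg/day, 3, 12 and 9 rises in hCYP2B6-Tg females, hCYP2B6-Tg males and Cyp2b-null females, 2 genes lower in females at 0 and 1 at 10 mg/kg/day, 0 in the F test, and 0.17 for Gpi1. Without the 6 libraries there were 1 rise and 9 falls in hCYP2B6-Tg males, 1 rise and 2 falls in each sex of the Cyp2b-null line, 0 higher and 1 lower in females at 10 mg/kg/day, and 0 in the F test. Limma voom gave 2 rises in hCYP2B6-Tg females, 3 in hCYP2B6-Tg males, 7 in Cyp2b-null females, 12 falls in Cyp2b-null males, and 5 higher and 4 lower in females at 0 mg/kg/day. DESeq2 gave 5 rises in Cyp2b-null females and 1 gene with a lower dose effect in females, and both tools gave 1 rise in hCYP2B6-Tg females at 1 mg/kg/day. With no filter there were 3 rises in hCYP2B6-Tg males and 1 gene higher in females at 10 mg/kg/day. With only the dose groups of a stratum there were 2 rises in hCYP2B6-Tg females, 1 rise and 6 falls in Cyp2b-null females and 10 falls in Cyp2b-null males.

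Leaving out each library in turn gave 1 to 2 rises and 11 to 17 falls in hCYP2B6-Tg females. In the males of that line it gave 1 to 7 rises and 8 to 16 falls. It gave 1 to 7 rises and 2 to 17 falls in Cyp2b-null females, and 1 to 2 rises and 1 to 6 falls in Cyp2b-null males. In hCYP2B6-Tg males rises numbered 3 or fewer without replicate 2 or 3 at 10 mg/kg/day or without replicate 1, 2, 3 or 4 at 0 mg/kg/day, and falls 9 without replicate 2 and 8 without replicate 3 at 10 mg/kg/day. In Cyp2b-null females rises were 1 without replicate 1 or 3, 6 without replicate 2 and 7 without replicate 4 at 10 mg/kg/day, and falls were 4 without replicate 1 and 2 without replicate 3 at 10 mg/kg/day and 7 without replicate 3 at 0 mg/kg/day. In Cyp2b-null males falls were 1 without replicate 3 at 10 mg/kg/day and 3 without replicate 2 or 4 at 0 mg/kg/day. Ppp1r3c at 1 mg/kg/day in hCYP2B6-Tg females passed without replicate 4 at 1 mg/kg/day (0 to 1 rises). Genes with a lower dose effect in females numbered 0 to 1, those lower in hCYP2B6-Tg at 10 mg/kg/day 0 to 1, those higher and lower in females at 10 mg/kg/day 1 to 3 and 1 to 4, and those in the F test 0 to 2.

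Not divided by length, the shares at 10 and 0 mg/kg/day were 97.3% and 97.7% for Hk2, 99.2% and 99.7% for Pfkm, 98.6% and 99.6% for Pgam2, 97.4% and 98.8% for Eno3, and at 0 mg/kg/day 99.9% for Pygm and 99.3% for Phkg1. With few counts, Aldoc and Pygl are the least certain.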

Other observations

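Stbd1 fell in 1 stratum. In hCYP2B6-Tg females it had 30.5, 12.7, 11.5 and 40.4 CPM at 10 mg/kg/day, against 106, 49.98, 68.3 and 55.4 CPM at 0 mg/kg/day (-1.56 ± 0.30, edgeR adjusted p = 0.00015), with no overlap. In Cyp2b-null females it had 45.5, 81.6, 57.0 and 65.1 CPM at 10 mg/kg/day and 69.2, 60.4, 83.2 and 68.4 CPM at 0 mg/kg/day, with a log2 fold change of -0.17. The F test of the dose effect among strata gave Stbd1 an adjusted p of 0.0841, which did not pass.

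Fbp2, which was higher in females, is given here by mouse. In females it had 101.1, 92.1, 69.8 and 73.2 CPM (hCYP2B6-Tg) and 42.7, 65.2, 43.9 and 106 CPM (Cyp2b-null) at 10 mg/kg/day, against 186, 106, 104 and 82.7 CPM and 144.5, 83.8, 179.1 and 101.1 CPM at 0 mg/kg/day. In males it had 52.5, 22.1, 22.2 and 52.7 CPM (hCYP2B6-Tg) and 49.1, 55.2 and 41.8 CPM (Cyp2b-null) at 10 mg/kg/day, against 49.1, 54.7, 48.1, 79.0 and 36.7 CPM and 42.1, 44.2, 38.1 and 45.8 CPM at 0 mg/kg/day. The fall passed within Cyp2b-null females (-0.98). The difference of the dose effect between the sexes was -0.58 and did not pass.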
